A study of Mus musculus with 6 samples.

Results

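Complement is a plasma and tissue defence system in which proteases activate one another in a chain and coat a target with fragments of C3 and C4. The 8 genes described here are C1ra and Masp1, which encode proteases that start the classical and the lectin route, C4b and C3, which encode the proteins that become attached to the target, Cfb, the protease of the alternative route, and the inhibitors Serping1, Cd55 and Cd59a. They were named as a list of complement genes, with earlier results of these data known, and are 8 of the 22942 genes in the tables. Each gene is represented by its RefSeq transcript with the highest mean level over all libraries.

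The cells were C3H-10T1/2, a line of mouse mesenchymal cells able to form fat cells, and their messenger RNA was sequenced. Of 6 libraries, 3 are controls with DMSO, the solvent, and 3 had 611 (Cpd A), which blocks the histone demethylase LSD1, at a dose of 4 uM. All cultures went through 6 days of brown adipocyte differentiation. Its first 72 h were spent in an induction medium whose agents were isobutylmethylxanthine (0.5 mM), indomethacin (125 uM), dexamethasone (1 uM), insulin (20 nM), T3 (1 nM), rosiglitazone (1 uM) and 10% serum, and after that the medium held the serum, insulin, T3 and rosiglitazone. The comparison of 611 with DMSO asks which transcripts differ in level when LSD1 is inhibited during this differentiation. Both groups thus carried the same hormones and drugs, dexamethasone and rosiglitazone included, and no undifferentiated or untreated culture is compared here. The labels place the start of treatment either at seeding or 12 h later, and induction 48 h after treatment. All values come from 1 cell line, and the 3 libraries of a group are biological triplicates according to the series' design text, so that the tests measure the spread between these cultures.

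The liver makes most complement protein in plasma, but fat tissue, fibroblasts and macrophages also make it. Fat cells are known above all for Cfd, also called adipsin, the protease that cuts factor B once it is bound to C3b, and the C3 fragment that follows from this step is known as acylation stimulating protein. Because the C3 and C4 fragments can attach to any nearby surface, cells carry inhibitors on their membranes and secrete others.

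The levels are in RPKM, which corrects reads for the length of the transcript and for the size of the library. They can be set side by side between genes, with less certainty where genes share sequence, since the rule for splitting such reads is unknown. The total of each library was taken as the trial value at which the most low values came out as whole multiples of 1 read. Within 0.02 reads, 52.6% to 55.0% of the low values of a library then did so. By chance 4% would, at a total not chosen in this way. The totals were about 38830000 to 41170000, and it is not known whether these count reads or pairs. Differences were tested with limma on log2(RPKM + 1) over the 13829 genes that reached 0.1 RPKM in at least 3 libraries, and a gene was called when its p adjusted by the Benjamini-Hochberg method was below 0.05. Log2 fold changes below are 611 minus DMSO on that scale, which understates the change of low genes, whereas folds are ratios of mean RPKM. The calls were frequent: 59.4% of the tested genes were called, 41.6% higher and 17.7% lower with 611. The median log2 fold change of all tested genes was 0.10. Scaling the libraries by their median ratio lowered that median by 0.11 and made the calls nearly even, at 28.5% higher and 28.6% lower, or 57.2% in either direction.

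In the cells labelled as brown adipocytes, the 6 adipocyte markers were all present and all lower with 611, with summed levels of 27558 to 28872 RPKM in DMSO and 14168 to 15689 RPKM with 611. Most of these sums was Fabp4, at means of 21052 and 10946 RPKM. The ratios of 611 to DMSO of the 6 markers ran from 0.488 for Lpl to 0.719 for Pparg. Of 5 brown adipocyte markers, Ucp1 was listed at 0 in every library, and the other 4 were lower with 611, with summed levels of 215.03 to 259.64 RPKM and 79.7 to 98.2 RPKM. Of 6 fibroblast and progenitor markers, 5 were tested and all 5 were higher, summing to 132.76 to 152.05 RPKM in DMSO and 409.07 to 436.1 RPKM with 611, while Dpp4 was listed at 0. Of 10 macrophage and leukocyte markers found, Ptprc, Tyrobp, C1qa and C1qc were at 0 throughout, and the list summed to 0.284 to 0.450 RPKM in DMSO and 0.430 to 0.614 RPKM with 611. The 6 hepatocyte markers summed to 0.330 to 0.483 RPKM and 0.131 to 0.226 RPKM, with Fgb and Ttr at 0. The 4 endothelial markers summed to 0.0875 to 0.232 RPKM and 0.279 to 0.323 RPKM, with Cdh5 and Kdr at 0. Only Tek was tested among them, and it was called higher. The adipocyte and progenitor markers therefore moved with the treatment in opposite directions beside every complement result below, and their part in those results was not tested. In such bulk RNA, fewer cells of a type and less RNA per cell cannot be told apart.

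Of the 8 complement genes, 7 were tested, and 4 rose with 611, 2 fell and 1 was not called. Masp1 rose 2.89-fold, C1ra 1.84-fold, C4b 1.36-fold and Serping1 2.46-fold. C3 was 1.17-fold lower and Cd59a 1.14-fold lower. Cfb was not called, and Cd55 was too low to test. The same 4 and 2 genes had libraries that did not overlap between the groups, an arrangement found higher for 45.8%, lower for 20.4% and either way for 66.2% of all tested genes. The median log2 fold change of the 7 was 0.33, against 0.10 for all tested genes. Beside the 41.6% higher and 17.7% lower of all tested genes, these counts describe the list and do not set it apart. Without 611 replicate 3 the members called higher were 2, and without DMSO replicate 1 or 3 or 611 replicate 1 or 3 the members called lower were 1.

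The promoters of C3 and Cd59a, the 2 members that fell, are shown as the 250 bases before the gene start, from the RefSeq promoter table (GRCm38.p6). The table held 4 of the 8 members, among them also Cd55, which was too low to test, and C1ra, whose upstream bases overlap annotated exons. They were searched on both strands for motifs of factors that bind acute-phase and adipocyte genes. C/EBP was searched as TTGCNNAA, STAT as TTCNNNGAA and the glucocorticoid response element as ACANNNTGT. NF-kB was searched as GGG and TTTCC with any 2 bases between, IRF as a pair of GAAA with any 2 bases between, and the PPAR response element as a pair of AGGTCA with any base between. Capitals mark the match.
C3, chr17:57228137-57228386, minus strand: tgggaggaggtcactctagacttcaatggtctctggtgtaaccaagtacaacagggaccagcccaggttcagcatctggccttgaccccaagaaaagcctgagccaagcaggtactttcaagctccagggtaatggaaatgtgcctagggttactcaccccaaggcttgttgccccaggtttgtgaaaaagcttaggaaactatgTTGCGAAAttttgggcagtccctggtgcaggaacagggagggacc
Cd59a, chr2:104095551-104095800, plus strand: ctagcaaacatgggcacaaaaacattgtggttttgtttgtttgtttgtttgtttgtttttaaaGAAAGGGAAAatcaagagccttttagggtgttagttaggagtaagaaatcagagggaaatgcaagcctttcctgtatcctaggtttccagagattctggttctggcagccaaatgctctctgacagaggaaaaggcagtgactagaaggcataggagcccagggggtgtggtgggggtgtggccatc

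C3 held 1 C/EBP match, TTGCGAAA, that begins 45 bases before the gene start, and no match to the other motifs searched. The upstream bases of Cd55 and C1ra held no match to any of the motifs. Cd59a held 1 IRF match, GAAAGGGAAA, beginning 187 bases before the start, and no other. Of 27025 promoters of the same length, 9.55% held the C/EBP letters and 3.04% the IRF letters. The other shares were 7.18% for STAT, 5.91% for the glucocorticoid response element, 1.4% for NF-kB and 0.037% for the PPAR response element. These matches describe the letters only, and binding was not measured in these libraries.

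**Figure D1:**
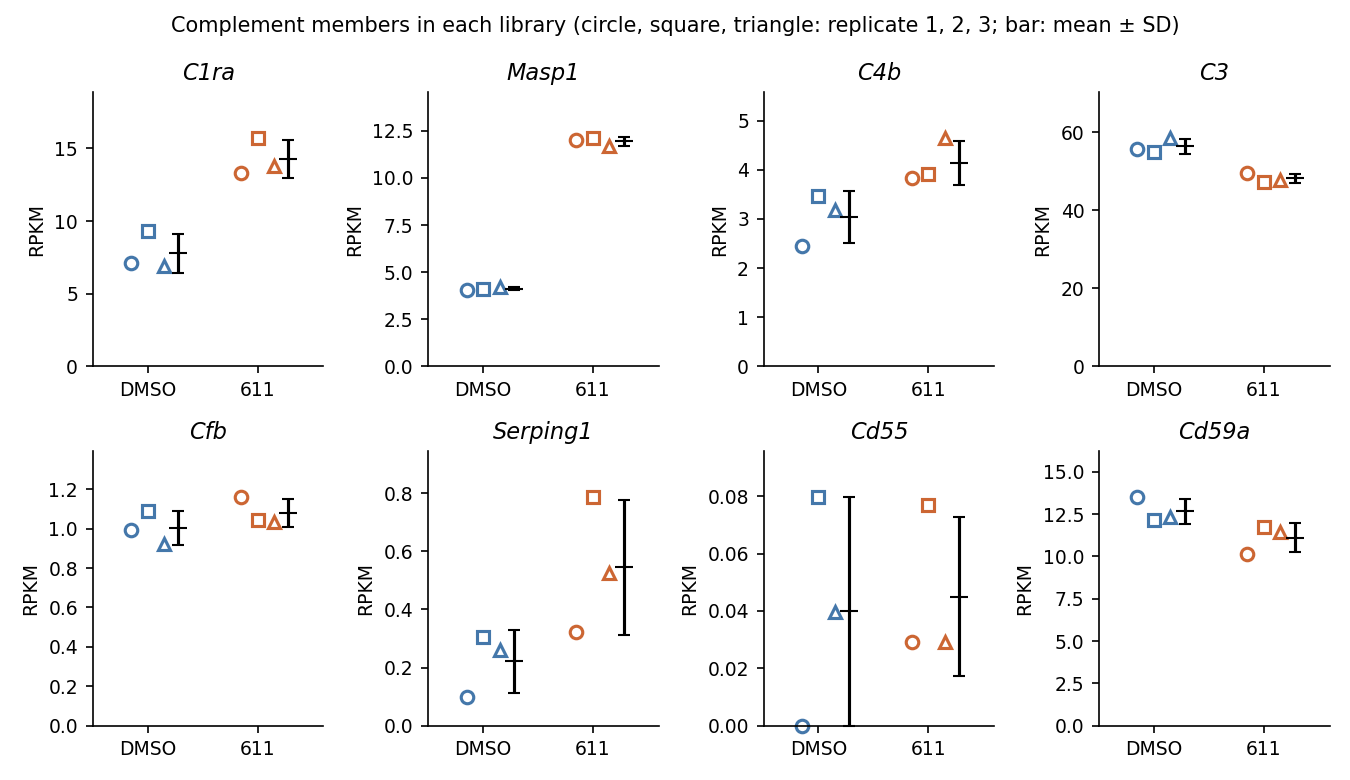
RPKM of the 8 complement genes in each of the 6 libraries, 1 panel per gene, each linear axis starting at 0. Circles, squares and triangles are replicates 1, 2 and 3, and bars give the mean ± SD of 3 libraries; the groups are apart for C1ra, Masp1, C4b, C3, Serping1 and Cd59a and overlap for Cfb and Cd55.

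Among the genes of the initiating proteases, C1ra, C1rb, C1s1 and C1s2 of the classical route and Masp1 of the lectin route rose, and Masp2 did not pass the test. Masp1 encodes MASP-1, the serine protease that starts the lectin route when mannose-binding lectins, collectins or ficolins meet their sugars, and, by alternative splicing, MASP-3, which activates pro-factor D. Its level was 4.04, 4.12 and 4.21 RPKM in DMSO replicates 1 to 3 and 12.0, 12.1 and 11.7 RPKM in 611 replicates 1 to 3. The 3 treated libraries lie close to each other and far above the 3 controls. The means were 4.13 ± 0.0860 and 11.9 ± 0.239 RPKM (SD, n = 3 each). The log2 fold change was 1.34 (SE 0.05), with an adjusted p of 2.96e-07 by limma, and 1.05% of the tested genes had a larger one. The tables hold 1 Masp1 transcript, so the splice forms were not separated.

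C1ra encodes C1r, the protease that C1q activates first in the classical route and that in turn cuts C1s. Its level was 7.12, 9.29 and 6.90 RPKM in the DMSO libraries and 13.3, 15.7 and 13.8 RPKM in the 611 libraries. Replicate 2 was the highest of each group, and the lowest treated library lay above the highest control. The means were 7.77 ± 1.32 and 14.3 ± 1.29 RPKM (SD, n = 3 each), and the log2 fold change was 0.81 (SE 0.10, adjusted p 1.77e-04 by limma). A larger log2 fold change was found in 6.23% of the tested genes. C1rb, a second C1r gene, shares 56.9% of the 31-base words of C1ra's transcripts (GENCODE M21), so reads may have been split between the copies, by a rule that no source used here states.

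The other genes of the C1 proteases were higher as well. C1rb went from 3.24 ± 0.855 to 5.64 ± 0.351 RPKM, a 1.74-fold rise with a log2 fold change of 0.66 (adjusted p 0.00187). C1s1, the gene for C1s, the protease that cuts C4 and C2, went from 8.89 ± 1.15 to 21.2 ± 2.68 RPKM, a 2.39-fold rise with a log2 fold change of 1.17 (adjusted p 1.89e-05). Its copy C1s2, which holds 37.0% of the 31-base words of C1s1, rose 2.71-fold from 1.17 ± 0.260 to 3.17 ± 0.443 RPKM, with a log2 fold change of 0.94 (adjusted p 8.2e-05). All 4 tested genes of the classical initiation list thus rose, under the main test, with the scaling and with the replicate block. Of all tested genes, 41.6%, 28.5% and 44.6% were called higher under these settings, in that order. Because C1ra shares sequence with C1rb, and C1s1 with C1s2, the 4 genes are not separate observations. The C1 proteases work only in a complex with C1q, and the C1q genes were not there to be tested: C1qa and C1qc had no reads in any library, and C1qb was above 0 in DMSO replicate 1 alone, at 0.0243 RPKM. A count of 0 allows up to 3 reads, which for C1qa would be 0.0701 to 0.0743 RPKM, and these floors cover counting error only.

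Among the genes listed with the lectin route outside the members, 2 that encode proteins with a collectin domain rose. Colec10, the collectin of liver that can form a complex with MASP proteases, rose 2.26-fold from 1.74 ± 0.208 to 3.94 ± 0.545 RPKM, with a log2 fold change of 0.85 (adjusted p 6.7e-05). Colec12, a scavenger receptor with a collectin domain, rose 1.53-fold from 23.1 ± 0.644 to 35.4 ± 1.16 RPKM, with a log2 fold change of 0.59 (adjusted p 5.0e-06). Masp2, whose product cuts C4 and C2, stood at 4.31 ± 0.0604 RPKM in DMSO and 3.93 ± 0.290 RPKM with 611. Its log2 fold change was -0.11 with a 95% interval of -0.25 to 0.03 and an adjusted p of 0.160. After the scaling it became -0.23 with an adjusted p of 0.00930, a call of lower. Masp1 and Masp2 had similar levels in DMSO, 4.13 and 4.31 RPKM, and with 611 they stood at 11.9 and 3.93 RPKM. The plasma lectins Mbl1, Mbl2 and Fcnb were at 0 in all libraries. Fcna, a ficolin below 1 RPKM that was singled out after its values were seen, went from 0.327 ± 0.0621 to 0.179 ± 0.0217 RPKM (log2 fold change -0.17, adjusted p 0.0318). In all, 5 of the 9 genes on the lectin initiation list, Colec12 included, were tested, of which 3 rose, 1 fell and 1 was not called. The shares over all tested genes were 41.6% higher and 17.7% lower.

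**Figure D2:**
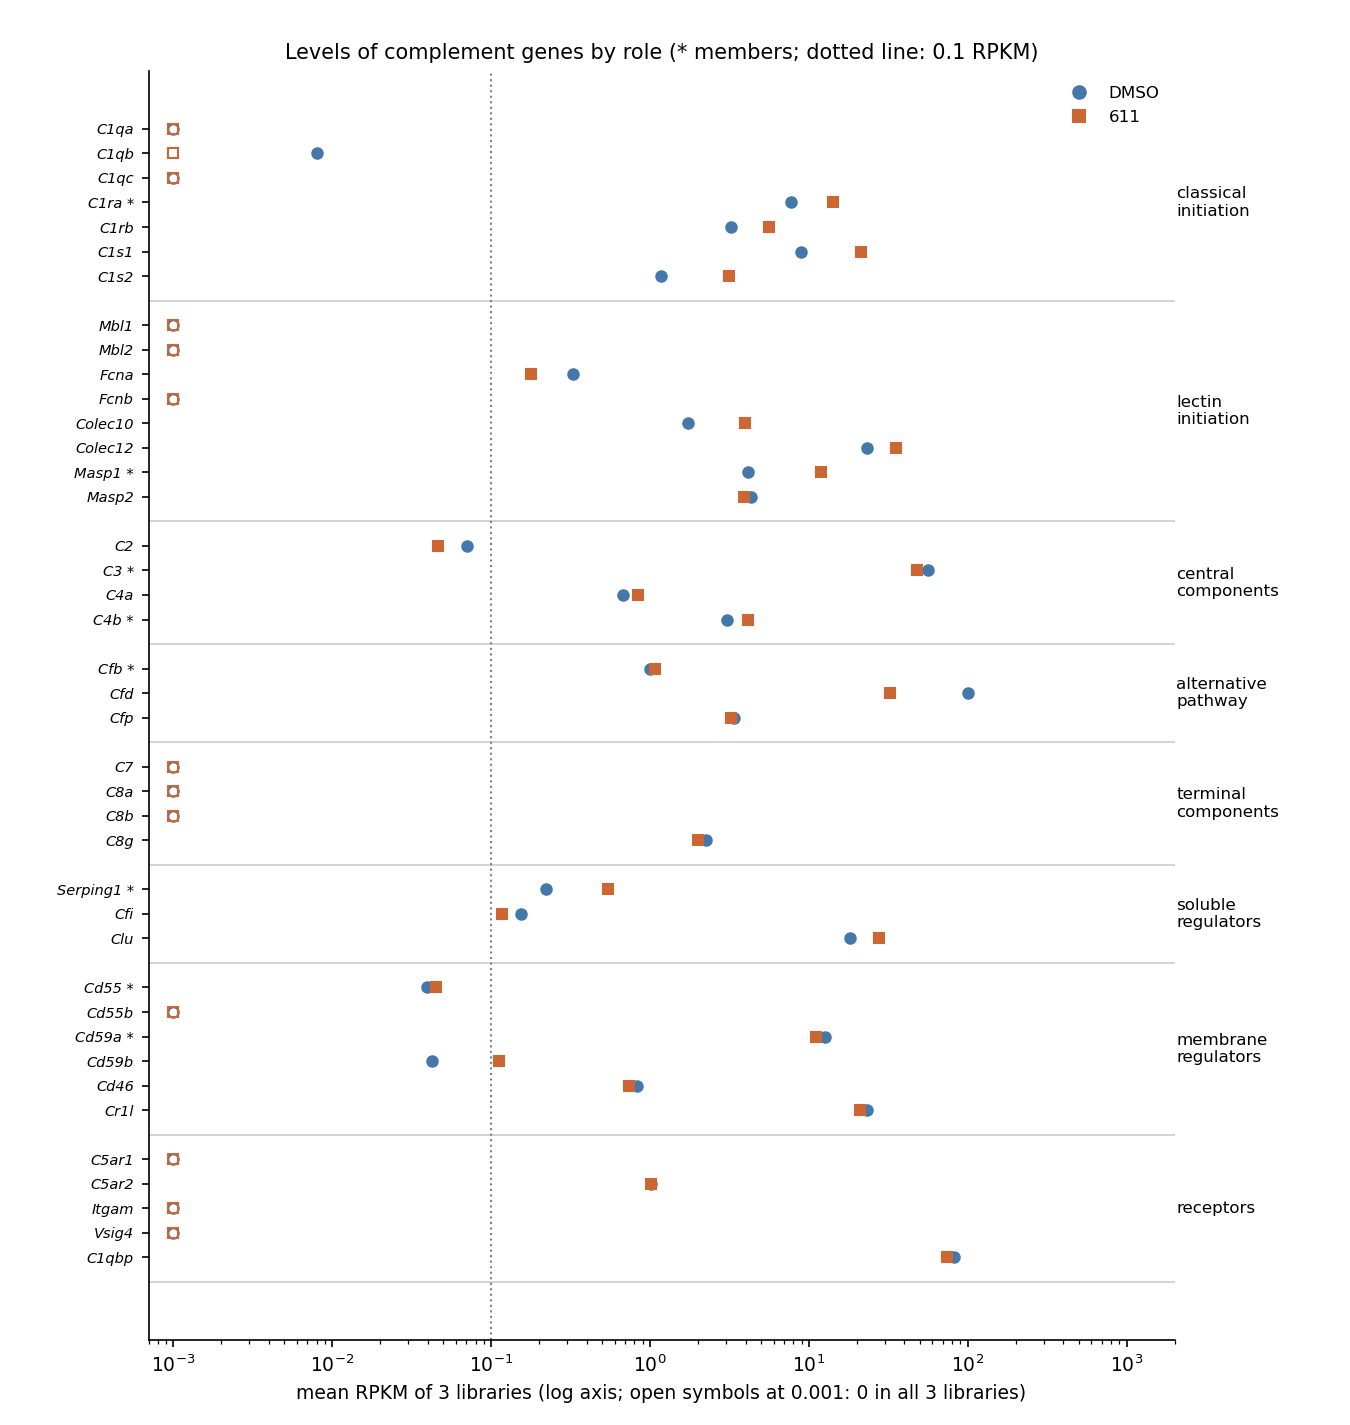
Mean RPKM over 3 libraries of the 40 complement genes described here, ordered by role, on a log axis, with circles for DMSO and squares for 611. Asterisks mark the 8 members, the dotted line marks 0.1 RPKM, and open symbols at 0.001 stand for genes listed at 0 in all 3 libraries of a group; Cfd is the highest in DMSO at 101 RPKM, C1qbp with 611 at 74.1 RPKM, and 12 of the genes drawn are at 0 in both groups.

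Of the genes whose products the proteases cut, C3 fell and C4b rose, a call that C4b lost after the scaling. C3, the protein on which all routes converge, was the most abundant of the 8 genes in both groups. Its level was 55.7, 54.9 and 58.6 RPKM in DMSO and 49.6, 47.3 and 47.7 RPKM with 611, and every treated library was below every control. The means were 56.4 ± 1.94 and 48.2 ± 1.22 RPKM (SD, n = 3 each). The log2 fold change was -0.22 (SE 0.04, adjusted p 0.00114 by limma), and -0.37 after the scaling. Its mean level was above that of 92.1% of the tested genes. No 31-base word of its transcripts was found in another gene.

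C4b encodes C4, which C1s and MASP proteases cut and which then forms a convertase with C2. Its level was 2.44, 3.48 and 3.19 RPKM in DMSO and 3.84, 3.92 and 4.65 RPKM with 611. The groups did not overlap, but the highest control, replicate 2, lay near the lowest treated library. The means were 3.04 ± 0.533 and 4.14 ± 0.446 RPKM (SD, n = 3 each), and the log2 fold change was 0.35 (SE 0.11, adjusted p 0.0176 by limma). The call was lost after the scaling, where the log2 fold change was 0.24 with an adjusted p of 0.0744, and without 611 replicate 3, where it was 0.28 with an adjusted p of 0.0660. C4a shares 48.8% of C4b's 31-base words, and its own level of 0.682 ± 0.161 RPKM in DMSO and 0.842 ± 0.0348 RPKM with 611 was not called (adjusted p 0.161). C2, the partner of C4 in the classical convertase, was below the level for testing, at means of 0.0705 and 0.0462 RPKM.

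Cfb encodes factor B, whose fragment Bb joins C3b to form the convertase of the alternative route. Its level was 0.995, 1.09 and 0.924 RPKM in DMSO and 1.16, 1.04 and 1.03 RPKM with 611. The groups overlapped, since DMSO replicate 2 lay above 2 of the treated libraries. The means were 1.00 ± 0.0843 and 1.08 ± 0.0705 RPKM (SD, n = 3 each). The log2 fold change was 0.05 with a 95% interval of -0.09 to 0.19 (adjusted p 0.474 by limma), and it changed sign to -0.02 after the scaling. Between 101 and 129 reads stood behind these values per library. An annotated gene that overlaps it, Gm20547, holds 80.9% of its 31-base words, so reads of both cannot be told apart here.

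The other genes of the alternative route are given for context. Cfd, the protease that cuts factor B, was the most abundant complement gene in DMSO and fell from 101 ± 11.9 to 32.3 ± 6.11 RPKM, a log2 fold change of -1.62 (adjusted p 1.05e-05). It fell together with the adipocyte markers, among which it is often counted. Cfp, the gene of properdin, the protein that stabilises the alternative convertase, stood at 3.39 ± 0.254 and 3.22 ± 0.626 RPKM (log2 fold change -0.07, adjusted p 0.609). With 611, the levels of Cfd and C3 were 32.3 and 48.2 RPKM, whereas in DMSO they were 101 and 56.4 RPKM, so that their order was exchanged, with Cfd libraries at 93.3 to 115 RPKM and then 26.0 to 38.2 RPKM.

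**Figure D3:**
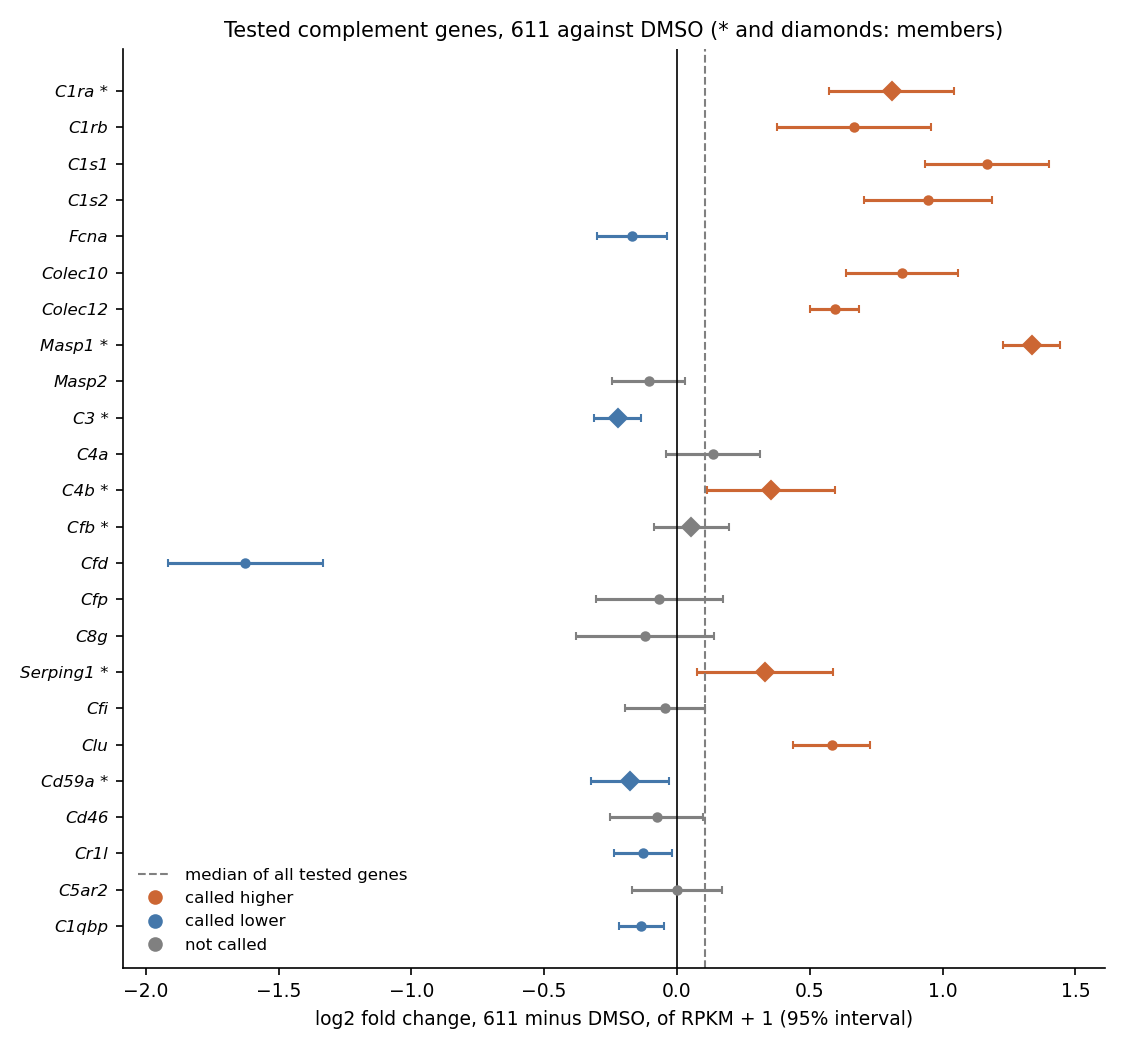
Log2 fold change of RPKM + 1, 611 minus DMSO, with 95% intervals, for 24 of the 26 complement genes tested, with diamonds and asterisks for the 7 tested members and the dashed line at the median of all tested genes, 0.10. Masp1 at 1.34 and Cfd at -1.62 are at the ends, and the other called members lie between -0.22 and 0.81.

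Of the 5 secreted inhibitors tested, 3 were called higher with 611 and 2 were not called. Serping1 encodes C1 inhibitor, the serpin that blocks C1r, C1s and the MASP proteases. Its level was 0.099, 0.304 and 0.262 RPKM in DMSO and 0.323, 0.787 and 0.524 RPKM with 611. The groups were next to each other, with DMSO replicate 2 just below 611 replicate 1, and about 6.80, 21.4 and 18.4 reads against 23.3, 57.3 and 37.8 reads stood behind the values. The means were 0.222 ± 0.108 and 0.545 ± 0.233 RPKM (SD, n = 3 each), and the log2 fold change was 0.33 (SE 0.11, adjusted p 0.0310 by limma). With a pseudocount of 0.1 in place of 1 it was 1.00. Libraries of the same replicate number kept together: the ratios of 611 to DMSO were 3.26, 2.59 and 2.00 for replicates 1, 2 and 3, and with the replicate number as a block the adjusted p was 0.00372. The call is weak without the block, since leaving out DMSO replicate 1 or 3 gave an adjusted p of 0.102 or 0.0533, and leaving out 611 replicate 2 or 3 gave 0.0919 or 0.0713. The adjusted p was also 0.0594 without any filter and 0.0630 without both libraries numbered 2. After the scaling it was 0.0484, just below the threshold.

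With 611, C1ra stood at 14.3 RPKM and C1s1 at 21.2 RPKM, against 0.545 RPKM for Serping1, the inhibitor of both proteases. In DMSO the levels were 7.77, 8.89 and 0.222 RPKM. The protease genes were therefore well above the inhibitor gene in both groups, in transcript level per length. Among 8 plasma serpins listed for comparison, 5 were tested, 2 rose and 1 fell. Those that rose were Serpinf1 and Serpine2.

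Clu, the gene of clusterin, a chaperone that keeps the membrane attack complex soluble, rose 1.52-fold from 18.3 ± 1.49 to 27.8 ± 1.59 RPKM, with a log2 fold change of 0.58 (adjusted p 7.0e-05). Of the 10 soluble regulators listed, 5 were tested, 3 rose, none fell and 2 were not called. Among all tested genes, 41.6% were called higher and 17.7% lower.

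Replicate 2 was the highest library of both groups for C1ra and Serping1 among the members, for 9 of the 26 tested complement genes and for 19.9% of all tested genes. Nothing in the labels says what the libraries of a number share.

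**Figure D4:**
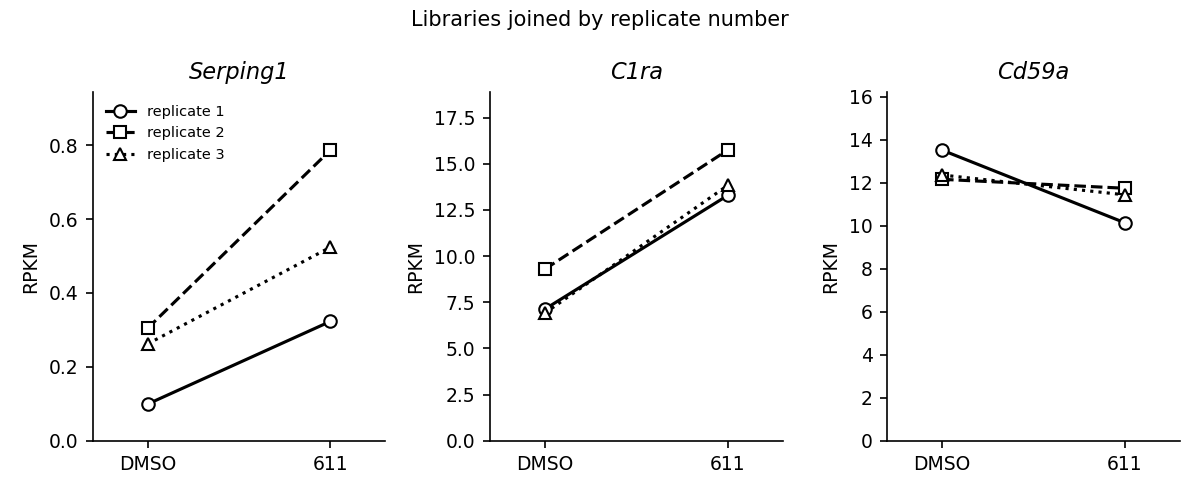
RPKM of Serping1, C1ra and Cd59a in DMSO and 611, with a line joining the libraries of the same replicate number, each linear axis starting at 0. The lines of Serping1 run from 0.099, 0.304 and 0.262 RPKM up to 0.323, 0.787 and 0.524 RPKM, each rising although the libraries within a group are widely spread.

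None of the tested inhibitors of the cell membrane was called higher. Cd59a encodes CD59, the protein that stops the membrane attack complex from inserting its last subunit. Its level was 13.5, 12.2 and 12.4 RPKM in DMSO and 10.1, 11.7 and 11.4 RPKM with 611. All treated libraries were below all controls, with a narrow gap between 611 replicate 2 and DMSO replicate 2. The means were 12.7 ± 0.733 and 11.1 ± 0.853 RPKM (SD, n = 3 each), and the log2 fold change was -0.18 (SE 0.06, adjusted p 0.0402 by limma). The call was lost with the replicate block, where the adjusted p was 0.0541, and without DMSO replicate 1 or 3 or 611 replicate 1 or 3, where it was 0.136, 0.0622, 0.121 and 0.0563. After the scaling the log2 fold change was -0.32 with an adjusted p of 0.00263. The tables hold 2 Cd59a transcripts, which share reads, and both were lower. Its copy Cd59b was not tested, at means of 0.0423 and 0.112 RPKM.

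Cd55 encodes decay-accelerating factor, which takes C3 convertases apart. Its level was 0, 0.0797 and 0.0397 RPKM in DMSO and 0.0291, 0.0769 and 0.0290 RPKM with 611. That was 0, 8 and 4 reads against 3, 8 and 3 reads, so the groups overlapped near the level of 3 reads, 0.0288 to 0.0305 RPKM. A difference was not detectable at this depth, and no fold is given. Its copy Cd55b was at 0 in all libraries.

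Cr1l, which encodes Crry, the rodent membrane inhibitor of C3 convertases, was the most abundant membrane regulator of the list. It stood at 23.1 ± 0.792 RPKM in DMSO and 21.1 ± 1.08 RPKM with 611, 1.10-fold lower with a log2 fold change of -0.13 (adjusted p 0.0465 by limma). The adjusted p was 0.00863 with the block, and 0.141, 0.113, 0.157 and 0.0579 without DMSO replicate 1 or 3 or 611 replicate 2 or 3. It was also 0.0606 without any filter, 0.0515 with summed transcripts and 0.0887 without both libraries numbered 2. Another annotated gene, Crry-ps, holds 39.3% of the 31-base words of Cr1l. Cr1l stood above Cd59a in each group, and Cd46 and Cd55 stood below it. Of the 9 membrane regulators found, 3 were tested, 2 fell and none rose, while 17.7% of all tested genes were called lower and 41.6% higher. With the replicate block 1 of the 3 was lower.

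The complement receptors were mostly at or near 0. C5ar1, Itgam and Vsig4, which myeloid cells carry, had no reads in any library. C5ar2, a second receptor for the C5a fragment, stood at 1.02 ± 0.166 and 1.02 ± 0.0896 RPKM, with a log2 fold change of 0.00 and a 95% interval of -0.17 to 0.17 (adjusted p 0.997). C1qbp, a mitochondrial protein first described by its binding to C1q, was 1.10-fold lower, from 81.4 ± 2.10 to 74.1 ± 2.13 RPKM (log2 fold change -0.13, adjusted p 0.0136). Without 611 replicate 2 its adjusted p was 0.0507, and without both libraries numbered 2 it was 0.115. Of the 7 terminal components, which build the membrane attack complex, only C8g was tested. It was not called, at 2.27 ± 0.286 and 2.02 ± 0.444 RPKM (log2 fold change -0.12, adjusted p 0.389). C8g belongs to the lipocalin family and lies outside the pore itself, while C7, C8a and C8b were at 0 in all libraries.

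Over the whole pathway list, 59 of 60 genes were found, 26 were tested, 11 were called higher and 6 lower, and 14 were at 0 in every library. Beside these counts, 41.6% of all tested genes were called higher and 17.7% lower, so they do not set the list apart. Without the 8 members the counts were 7 higher and 4 lower of 19 tested, with a median log2 fold change of 0.00. With the replicate block 64.1% of all genes were called, 44.6% higher and 19.5% lower, against 11 and 5 of the 26. With the scaling the pathway counts were 9 higher and 7 lower, beside 28.5% and 28.6% of all tested genes. Without DMSO replicate 1, or without 611 replicate 2 or 3, 3 of the 26 were called lower. Of the tested genes below 1 RPKM in both groups, such as Fcna, C4a, Cfi and Cd46, only Fcna was called among those outside the members.

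By level, the members in DMSO ran C3, Cd59a, C1ra, Masp1, C4b, Cfb, Serping1 and Cd55. The DMSO libraries of neighbours in this order did not overlap. C1ra, C4b and Cfb share much sequence with other genes, so their levels may depend on how shared reads were assigned. With 611 the order was C3, C1ra, Masp1, Cd59a, C4b, Cfb, Serping1 and Cd55. Here Masp1 at 11.7 to 12.1 RPKM and Cd59a at 10.1 to 11.7 RPKM were not apart beyond their spread. C1ra, below Cd59a in every DMSO library, was above it in every 611 library.

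The genes whose library pattern was nearest to that of Masp1, the member with the largest rise, were Sdc3, Slit2 and Gpc1. Nearness is the root mean square difference of log2(RPKM + 1), centred on its mean over the 6 libraries, and was 0.0330, 0.0413 and 0.0442 among 11352 genes. For C3, the member with the largest fall, Map3k5 and Arih2 were among the 3 nearest, at 0.00955 and 0.0151. These are descriptions over 6 libraries that share the same treatment.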

How the data were processed

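The sequencing data were processed by the submitters with TopHat and SAMtools (TopHat2 version 2.0.12) on the mouse build mm9, per the submitters' processing notes. Each library's table, as the authors deposited it, gives RPKM for 28430 RefSeq transcripts. No source used here names the program behind the RPKM, its annotation release or its use of strand, so overlapping and antisense genes cannot be told apart. Groups and replicate numbers come from the sample titles.

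Symbols were matched by accession in a RefSeq table of GRCm38.p6, used for names, for 27789 of 28430 transcripts; 641 kept their accession. Genes were tested with limma 3.58.1 (R 4.3.3, with trend) on log2(RPKM + 1), group as the only term, and the fit was checked on simulated data. Shared 31-base words were counted over GENCODE M21 transcripts. Libraries with equal replicate numbers shared deviations from the group means (r = 0.2956, 0.2977 and 0.1767 for numbers 1, 2 and 3), so a fit with the number as a block was run; the pairing comes from the numbers in the titles and these correlations.

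The members and gene lists were chosen with earlier results of these data known. Named are the members, every tested pathway gene outside them whose larger group mean reached 1 RPKM, and the 3 genes nearest in pattern to the members with the largest rise and fall. Alternatives were median-ratio scaling, a pseudocount of 0.1, other filters, summed transcripts, robust fitting, the block, and libraries left out. Some genes that the naming rule covers are counted but not reported here.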

Additional observations from a re-analysis of the deposited data

How the results depend on the processing

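Over 21 named genes and 15 alternatives, 282 values stayed on their side of the threshold, 30 lost a call and 2 gained one, both for Masp2 with the scaling. For 14 genes the call was the same under every alternative run. The genes that lost a call at least once include C4b, Serping1, Cd59a, Cr1l and C1qbp, and the sign changed 10 times, only among Cfb, Cfp, C8g and C5ar2, which were not called. The cause was not tested. All genes called lower numbered 2451, but 3959 with the scaling and 4319 with the scaling and block together. Leaving out 1 library gave 5127 to 5532 genes higher and 2167 to 2329 lower, members 2 to 4 higher and 1 to 2 lower, and pathway genes 8 to 11 higher and 3 to 5 lower. Without 611 replicate 3, 2 members were higher. Without any filter 1 member was lower. Without both libraries numbered 2, chosen after seeing the data, 3 pathway genes were lower.

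With the replicate block, 6169 genes were higher and 2700 lower, 4 members higher and 1 lower, and 11 pathway genes higher and 5 lower. The call of Cd59a was lost, at an adjusted p of 0.0541, and no other call among the 21 named complement genes changed. Depth limits Cd55, at 0 to 8 reads, and Serping1, whose lowest library held about 6.80 reads.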

Other observations

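Among genes of other acute-phase proteins, which liver and fat cells release in inflammation, Hp, Lcn2, Orm1 and Orm2 fell, while Cp and Hpx were not called. With the replicate block Cp was called higher, at an adjusted p of 0.00595 by limma. Of 17 listed acute-phase and interferon genes, 13 were tested, 5 rose and 5 fell, and 4 rose and 5 fell after the scaling. Hp, the gene of haptoglobin, fell from 60.2 ± 2.29 to 36.2 ± 1.48 RPKM (SD, n = 3 each, log2 fold change -0.72, adjusted p 2.9e-06 by limma). The interferon gene Irf7 also fell. Ccl2, a chemokine for monocytes, rose from 0.880 ± 0.0520 to 6.32 ± 0.778 RPKM (log2 fold change 1.96, adjusted p 5.4e-07), and Il6, Ifit1, Ifit3 and Stat2 rose as well. Ifit1 lost its call after the scaling, at an adjusted p of 0.163, and with a pseudocount of 0.1, at 0.0509 (limma).

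Of 11 transcription factors that bind promoters of acute-phase genes, all were tested, 5 rose and 3 fell, and 3 rose and 3 fell after the scaling. Cebpb fell from 79.8 ± 7.73 to 57.4 ± 3.19 RPKM (log2 fold change -0.47, adjusted p 5.0e-04), while Cebpd rose from 9.36 ± 0.581 to 15.0 ± 1.61 RPKM (log2 fold change 0.62, adjusted p 1.3e-04). The lists were chosen with earlier results known, and 41.6% of all tested genes were called higher and 17.7% lower.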
